A study of Trametes sanguinea with 15 samples.

Results

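The module described here holds the genes of the white-rot fungus Pycnoporus sanguineus CIRM-BRFM 1264 (Trametes sanguinea in the labels) whose transcripts were at higher levels on all 3 carbon sources that contain hemicellulose than on both that do not. Its 110 members, of 11782 genes with normalised read counts, were chosen by their own levels. The lowest of the mean normalised counts on aspen, wheat straw and xylan-galactomannan had to be at least 100 and at least 2 times the higher of the Avicel and maltose means. In addition, the highest mean had to be under 2.5 times the second, and the second under 2.5 times the third. Of the 13 genes that the rule sets aside by name, 7 met these thresholds as well, so 117 genes met them in all. The levels on aspen, wheat straw and xylan-galactomannan relative to Avicel and maltose therefore made the module, and they are given below as a description, without a test.

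Polyadenylated RNA was sequenced from mycelium after 3 days of liquid culture, with 3 libraries on each carbon source. Cultures on aspen (a hardwood), wheat straw (a grass biomass), a mixture of xylan and galactomannan, or Avicel (microcrystalline cellulose) held 15 g/l of that substrate with 2.5 g/l of maltose, and the control cultures held 20 g/l of maltose and no polymer. All groups thus received maltose, and they are 1 strain at 1 time. The study describes independent cultures for aspen, wheat straw, Avicel and maltose, but nothing in the sources at hand says so of xylan-galactomannan, where the spread between libraries may be technical. Each library pools a whole mycelium, so fewer hyphae that transcribe a gene and fewer transcripts per hypha cannot be told apart.

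Hemicelluloses are the branched polysaccharides that surround cellulose fibrils in plant cell walls. Xylans dominate in hardwoods and grasses, and mannans are also found in wood and are stored in many seeds. White-rot fungi secrete glycoside hydrolases and esterases that release sugars and short oligosaccharides from these polymers, take the products up through membrane transporters and pass them into central metabolism through reductases and dehydrogenases. Many of the genes concerned are kept low while an easily used sugar is abundant.

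Library totals were 24209984 to 50428442 counts. Members had at least 4 counts in every library, and 8 of the 110 had fewer than 20 in some library, so depth limits few of the values below. Across all 11782 genes, on log2(normalised count + 1), libraries correlated with their own group at 0.985 to 0.990 on aspen and wheat straw and at 0.945 to 0.978 on the other carbon sources. Xylan-galactomannan 2 (0.945), Avicel 1 (0.961) and maltose 3 (0.959) had the lowest value of their groups and are called apart below. Of these, leaving out the first changed the module the most. Without xylan-galactomannan 2 the rule gave 70 genes, of which 60 were among the 110, and 50 members were lost. Of those 50, the fold over the higher control was under 2 for 40, a mean was under 100 for 5, and an evenness limit was passed for 23, with some genes under more than 1 heading. Without all 3 libraries apart, a check added after the data had been seen, the rule gave 86 genes, of which 54 were among the 110. Leaving out any other single library gave 104 to 124 genes, and 35 members stayed in the module whichever of the 15 libraries was left out.

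**Figure D1:**
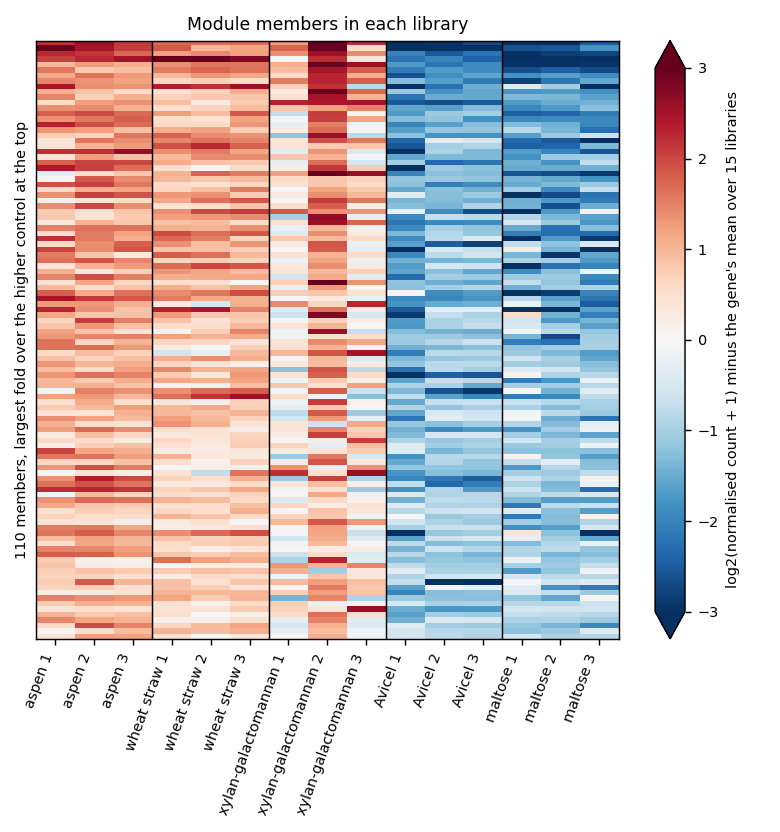
Each row is 1 of the 110 members and each column 1 library; colour is log2(normalised count + 1) minus the gene's mean over the 15 libraries, and rows run down from the largest fold over the higher control to the smallest. The left 9 columns are mostly above the row mean and the right 6 mostly below it, as the rule requires of the means, and xylan-galactomannan 2 stands out within its group.

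Together the members held 1.87 ± 0.0715% of the counts on aspen, 1.72 ± 0.0468% on wheat straw and 1.11 ± 0.653% on xylan-galactomannan, against 0.211 ± 0.0319% on Avicel and 0.227 ± 0.0204% on maltose (SD, n = 3 each). The wide spread on xylan-galactomannan came from 1 library. Members held 1.86% of the counts of xylan-galactomannan 2, a share within the range of the 3 aspen libraries, against 0.649% in xylan-galactomannan 1 and 0.820% in xylan-galactomannan 3. The shares of these other 2 libraries lay between those of the plant biomasses and those of the controls, which did not pass 0.243% in any library. Summed normalised counts of members placed xylan-galactomannan 2 differently, at 719401, above the 513075 to 611336 on aspen and 525076 to 567580 on wheat straw.

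**Figure D2:**
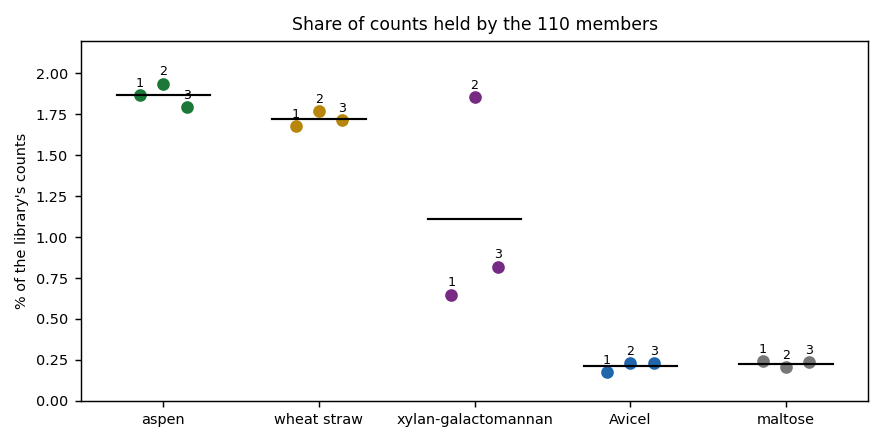
Points give the percentage of each library's counts held by the 110 members, numbered by library, and lines are group means. By this share, xylan-galactomannan 2 (1.86%) sits with aspen and wheat straw, and the other 2 libraries of its group (0.649 and 0.820%) sit between those and the controls.

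Across the members, the median ratio of mean normalised counts was 4.95 for aspen over Avicel, 4.62 for wheat straw over Avicel and 4.0 for xylan-galactomannan over Avicel. Over maltose the medians were 4.94 on aspen, 3.99 on wheat straw and 3.66 on xylan-galactomannan. Without xylan-galactomannan 2, the last substrate had medians of 2.76 over Avicel and 2.84 over maltose. The fold used by the rule, the lowest of the 3 substrate means over the higher of the Avicel and maltose means, had a median of 2.71 and a range of 2.01 to 24.7. It was below 3 for 65 members and at least 10 for only 4 of the 110.

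The rule acts on group means, and the separation by single libraries is described here. In 84 of the 110, all 9 libraries of the 3 substrates lay above all 6 libraries of Avicel and maltose, beside 2.38% of all 11782 genes. Since the rule used these levels, nothing is read from that count. The 3 aspen libraries lay above all 6 controls in 109 members and the 3 wheat straw libraries in 108, but the 3 xylan-galactomannan libraries in 85. Single libraries of that group differed, with 93 members above all 6 controls in xylan-galactomannan 1, 107 in xylan-galactomannan 2 and 91 in xylan-galactomannan 3. No share of all genes was computed for these further counts, so nothing is read from them either.

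Members at the edge of the rule show how sharp each limit was. Just inside the minimum level was 1560672, with a lowest mean of 100.2, and just outside was 1682629, with 94.9. Just inside the fold limit was 1593983 at 2.01 times the higher control, and just outside was 1571782 at 1.999 times. For the highest mean over the second, 1611669 was inside at 2.47 and 1571620 outside at 2.57, and for the second over the third, 1590375 was inside at 2.42 and 1641846 outside at 2.74.

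Annotation was at hand for few members. The study's tables give a CAZyme family (a sequence-based family of carbohydrate-active enzymes) or a KOG (a cluster of orthologous eukaryotic genes) for 8 of the 110, and 10 others appear there without one. These 18 members are all from the genes that the study selected on these same libraries, 5 on aspen only, 6 on wheat straw only and 7 on both. Of the study's 91 aspen genes 12 were members, and of its 88 wheat straw genes 13. No member was among the 30 genes of the map nodes that the study singled out for secreted proteins. Because the set-aside genes that met the thresholds include a GH88, a GH92, 4 sugar transporter types of KOG0254 and 1 transporter of KOG2533, the annotated genes left in the module are not all the annotated genes of this pattern.

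Of the annotated members, the largest fold over the controls belonged to 1577230, a gene of GH28, the family of polygalacturonases that cut the galacturonan backbone of pectin. Its normalised counts were 5069, 6288 and 5398 on aspen, 6700, 7945 and 7836 on wheat straw, and 5509, 26631 and 15183 on xylan-galactomannan, against 803, 568 and 702 on Avicel and 338, 271 and 340 on maltose. The lowest of its 9 values on hemicellulose-containing substrates was 6.31 times the highest of its 6 control values. Its fold over the higher control was 8.08 with or without xylan-galactomannan 2, since aspen gave the lowest mean.

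A pair of genes encode families that act on alpha-linked mannose. The first, 1575750 of GH76, is annotated as an endo-mannanase, and in baker's yeast members of this family work on the cell wall. It had 2726, 4282 and 5048 normalised counts on aspen, 8008, 10054 and 7133 on wheat straw, and 2729, 3618 and 3704 on xylan-galactomannan, against 353, 1031 and 1115 on Avicel and 379, 403 and 818 on maltose. All 9 substrate libraries lay above the 6 controls, and wheat straw was 2.09 times the next mean, the largest such ratio among members highest on wheat straw. The second, 1588377 of GH125, a family with exo-acting mannosidases known from bacteria, averaged 7696 ± 2224 on aspen, 10016 ± 1744 on wheat straw and 6650 ± 2315 on xylan-galactomannan, against 1573 ± 148 on Avicel and 1720 ± 469 on maltose (SD, n = 3 each). Its lowest substrate library (4075, xylan-galactomannan 3) was 2.002 times its highest control library (2036, maltose 3).

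The esterase-type gene 1586203 (KOG4389, the class named after animal cholinesterases) had 1283, 2382 and 2893 normalised counts on aspen, 3439, 5584 and 4861 on wheat straw, and 3870, 19536 and 10209 on xylan-galactomannan, against 424, 691 and 675 on Avicel and 276, 260 and 223 on maltose. As for the GH28 gene, xylan-galactomannan had the highest mean and the widest spread. That mean was 2.42 times the next, close to the limit of 2.5, and was 7040 without xylan-galactomannan 2, against 11205 ± 7880 with it (SD, n = 3).

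The only annotated member of sugar metabolism was 1611298 (KOG0725, a reductase type annotated as a D-arabinitol dehydrogenase, an enzyme that interconverts a polyol and a ketose). It averaged 2361 ± 668 normalised counts on aspen, 4413 ± 496 on wheat straw and 2074 ± 1008 on xylan-galactomannan, against 676 ± 259 on Avicel and 233 ± 88.1 on maltose (SD, n = 3 each). Its 9 substrate libraries lay above its 6 control libraries by at least 1.71 times.

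Membrane proteins were represented by 1618911 (KOG0224, aquaporins, channels for water or glycerol) and 1755315 (KOG0059, a lipid exporter type of the ABC superfamily, whose members pump substrates at the cost of ATP). The aquaporin-type gene had 12715, 7928 and 11115 normalised counts on aspen, 9606, 10820 and 13854 on wheat straw, and 6016, 6386 and 4937 on xylan-galactomannan, against 3894, 989 and 1125 on Avicel and 353, 503 and 915 on maltose. Its lowest substrate library was 1.27 times its highest control library, Avicel 1. The ABC-type gene had 10290, 8162 and 6205 on aspen, 2763, 2030 and 2906 on wheat straw, and 2192, 8522 and 3324 on xylan-galactomannan, against 167, 923 and 834 on Avicel and 682, 697 and 716 on maltose. It was highest on aspen, and without xylan-galactomannan 2 it no longer met the evenness limit.

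The cytochrome P450 gene 1672037 (KOG0157), of an enzyme class that oxidises small hydrophobic molecules, was the annotated member nearest the edge. Its normalised counts were 5739, 15028 and 10716 on aspen, 5936, 7486 and 8828 on wheat straw, and 2758, 8183 and 2880 on xylan-galactomannan, against 3108, 1894 and 1867 on Avicel and 1728, 1504 and 1022 on maltose. Xylan-galactomannan 1 and 3 lay below Avicel 1, so the groups overlapped. Its fold over the higher control was 2.01, and 1.23 without xylan-galactomannan 2. Of the 8 annotated members, 6 stayed in the module without that library, and this gene and the ABC-type gene did not.

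**Figure D3:**
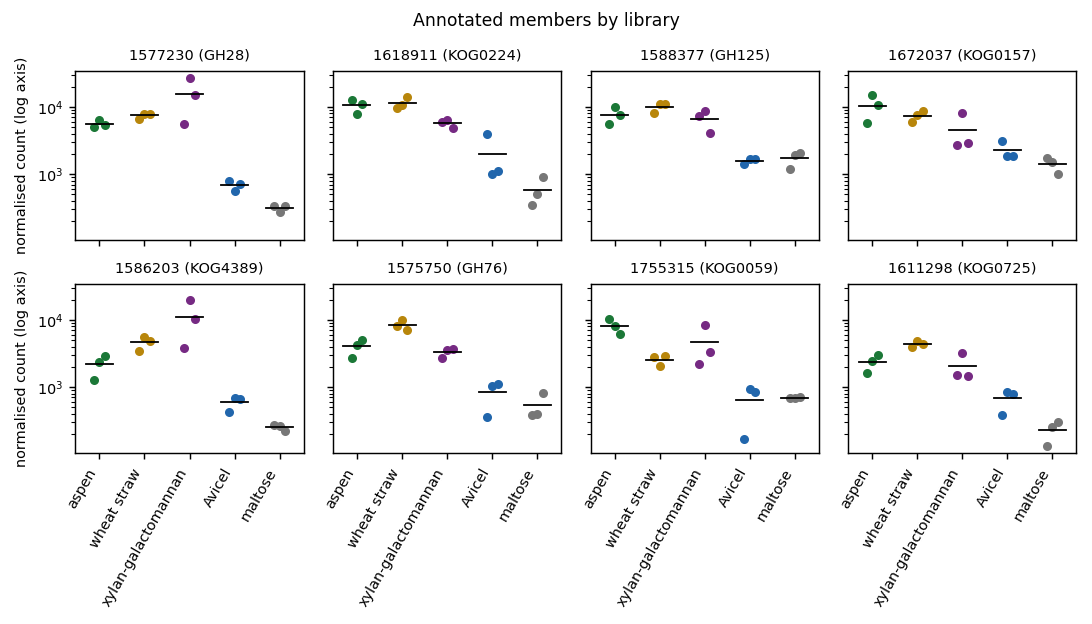
Each panel shows 1 annotated member, with normalised counts on a log axis for the 3 libraries of each carbon source and a line at their mean. Substrate libraries lie above the control libraries in 7 panels, and overlap with Avicel in that of 1672037.

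The largest folds of all belonged to genes without annotation in the tables used here. The gene 1651875 had 20446, 26806 and 19431 normalised counts on aspen, 14886, 14376 and 14351 on wheat straw, and 10772, 44634 and 21115 on xylan-galactomannan, against 481, 587 and 699 on Avicel and 381, 328 and 785 on maltose. Its fold over the higher control was 24.7 with or without xylan-galactomannan 2, and its lowest substrate library was 13.7 times its highest control library. No other member had a ratio between libraries as large, and 1585703 followed with 9.47.

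The gene 1585703, at lower levels, was also free of overlap between substrate and control libraries. It had 2624, 2422 and 1792 normalised counts on aspen, 1285, 1482 and 1293 on wheat straw, and 1437, 3208 and 1468 on xylan-galactomannan, against 136, 94.7 and 116 on Avicel and 63.9, 75.6 and 79.7 on maltose. Its fold over the higher control was 11.7, also without xylan-galactomannan 2.

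The most abundant member, 1596703, had 78784, 90420 and 106922 normalised counts on aspen, 181704, 158169 and 130367 on wheat straw, and 18143, 88576 and 24069 on xylan-galactomannan, against 4051, 4765 and 3519 on Avicel and 1609, 978 and 1213 on maltose. It held 0.496 ± 0.0611% of all counts on wheat straw, against 0.00329 ± 0.000995% on maltose (SD, n = 3 each). No substrate library overlapped a control library. Its fold over the higher control was 10.6, and 5.13 without xylan-galactomannan 2, where it also passed an evenness limit.

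Relative to gene length, the highest member was 1672714, a short gene model of 423 bases, at 64201 normalised counts per kb averaged over the 3 substrates, followed by 1596703 at 48682 and by 1577481, also of 423 bases, at 46238 per kb. The median over members was 1192 per kb. The gene 1672714 had 57100, 30353 and 23443 normalised counts on aspen, 19489, 10927 and 12412 on wheat straw, and 18849, 64020 and 7821 on xylan-galactomannan, against 317, 427 and 657 on Avicel and 896, 940 and 1606 on maltose. It varied widely between libraries of 1 substrate, and no substrate library overlapped a control library. By contrast, 1577481 had 3800 and 4251 in xylan-galactomannan 1 and 3, below the 8736 of maltose 3, and 33115 in xylan-galactomannan 2.

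The other members among the 10 most abundant had smaller folds, between 2.09 and 4.17 times the higher control. The gene 1590027 averaged 20772 ± 8273 normalised counts on aspen, 25734 ± 1642 on wheat straw and 24029 ± 11612 on xylan-galactomannan, against 4986 ± 2880 on Avicel and 1344 ± 568 on maltose (SD, n = 3 each), with a fold of 4.17. The folds were 3.28 for 1574823, 2.46 for 1596800, 2.32 for 1045198, 2.25 for 1577481, 2.14 for 1598645 and 2.09 for 1596179. Of these 10 abundant members 4 met the rule without xylan-galactomannan 2, namely 1590027, 1651875, 1596179 and 1045198.

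Members differed in how even they were over the 3 substrates. Aspen had the highest mean in 53 members, wheat straw in 31 and xylan-galactomannan in 26, and the lowest mean was on xylan-galactomannan in 55, on wheat straw in 39 and on aspen in 16. In 25 members all 3 means lay within 1.5 times of each other. Most uneven towards aspen were 265968, with 617, 655 and 594 on aspen, 216, 240 and 302 on wheat straw and 124, 185 and 60.7 on xylan-galactomannan, and 703773, at 3411 ± 569 on aspen, 1379 ± 95.1 on wheat straw and 1452 ± 190 on xylan-galactomannan (SD, n = 3 each). Most uneven towards xylan-galactomannan were 1611669 and 1730034. The gene 1611669 had 1363, 1488 and 1527 on xylan-galactomannan, against 405, 658 and 712 on aspen and 516, 327 and 468 on wheat straw, with no overlap. The gene 1730034 had 2221, 668 and 2900 on xylan-galactomannan, with its lowest value in library 2. It lay above aspen (463, 657 and 552), by a narrow margin in library 2, and overlapped wheat straw (646, 283 and 1460). Towards wheat straw, 1590375 followed the GH76 gene, with a mean 1.99 times the next.

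Between pairs of substrates, the 3 libraries of aspen lay above the 3 of wheat straw in 39 members, beside 28.7% of all genes, and those of wheat straw above aspen in 14, beside 29.9%. Xylan-galactomannan lay above aspen in 9 members, beside 26.7% of all genes, and aspen above xylan-galactomannan in 23, beside 26.5%. Xylan-galactomannan lay above wheat straw in 6, beside 27.6%, and wheat straw above xylan-galactomannan in 17, beside 26.9%. The rule bounds the ratios of these means, so nothing is read from the counts. They moved most without xylan-galactomannan 2, where aspen lay above xylan-galactomannan in 70 members and wheat straw above xylan-galactomannan in 56. Without xylan-galactomannan 1, xylan-galactomannan lay above aspen in 16 and above wheat straw in 19, and without wheat straw 3 it lay above wheat straw in 11. In 45 members no pair of substrates was free of overlap. No share of all genes was computed for these 45 or for the counts with a library left out. Fewer libraries also overlap less readily, so nothing is read from these counts either.

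Within substrates, members had larger coefficients of variation than all genes that reached the same minimum level, a set that includes the members. Their median coefficient of variation was 0.177 on aspen, 0.161 on wheat straw and 0.533 on xylan-galactomannan, against 0.134, 0.0803 and 0.202 in the 9182 genes whose lowest substrate mean was at least 100. On Avicel it was 0.236 in members against 0.154 in those genes, and on maltose 0.326 against 0.169. These are descriptions, since the rule acts on the same libraries. A mean lifted by 1 library can bring a gene into the module. The rule also held members low on Avicel and maltose, which was not asked of the 9182 genes. Least variable over the 3 hemicellulose-containing substrates were 1473086, 1593965 and 703773, with mean coefficients of 0.0902, 0.102 and 0.122. Most variable were 1674914, 1625623 and 1672714, with 0.664, 0.631 and 0.595.

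On xylan-galactomannan most members were highest in the same library. The rule uses the mean of that group, so a high value in 1 library helped a gene to pass. Without xylan-galactomannan 2, 50 members did not meet the rule. The values below are therefore a description, and no difference from all genes is read from them. Of the 110, 89 had their highest value of that group in xylan-galactomannan 2, against 46.1% of the 9182 genes. The median ratio of that library to the mean of the other 2 was 2.16 in members and 1.03 in those genes, and it ran among members from 0.261 (1730034) to 11.9 (1625623). The gene 1625623 had 137 and 177 normalised counts in xylan-galactomannan 1 and 3, within the range of its 6 control libraries (88.9 to 201), and 1872 in xylan-galactomannan 2. Its 3 aspen values (532, 496 and 937) and 3 wheat straw values (1064, 836 and 798) lay above all controls. What set that library apart was not tested.

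**Figure D4:**
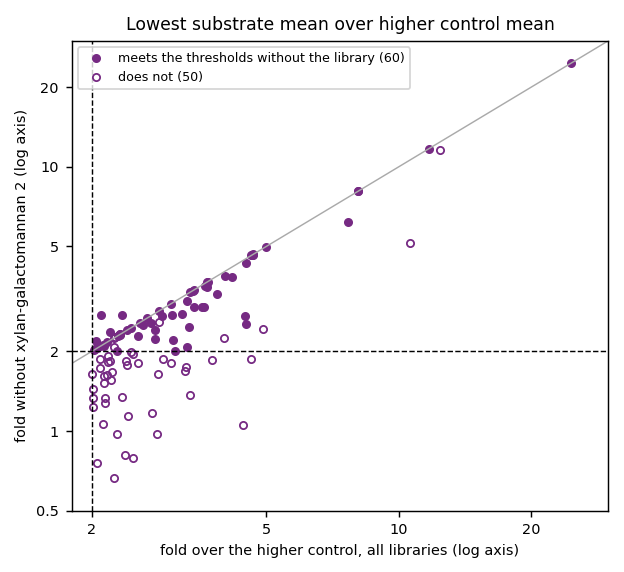
Each point is 1 member, with the lowest substrate mean over the higher control mean from all libraries on the x axis and without xylan-galactomannan 2 on the y axis, both on log axes; dashed lines mark the limit of 2 and the grey line marks equal values. Filled points are the 60 members that still met all thresholds and open points the 50 that did not, while 1651875 stays at 24.7.

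The 78 members that the rule for named genes left out had folds of 2.01 to 8.08 over the higher control, with a median of 2.60, and averaged 153 to 11383 normalised counts over the 3 substrates, with a median of 1278. Of these, 42 met the rule without xylan-galactomannan 2. Members were close to other genes in length, with a median gene model of 1348 bases against 1278 bases over all 11782 genes, and a range of 423 to 5039 bases.

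For Avicel against maltose, the rule set a ceiling on both means and did not use their ratio. That ceiling, relative to the 3 substrate means, kept out genes raised far on Avicel or on maltose. Calls and fold changes of members are therefore limited by the choice of members. Avicel cultures held 2.5 g/l of maltose and maltose cultures 20 g/l, so the added cellulose and the lower maltose cannot be told apart. By edgeR's quasi-likelihood test with Benjamini-Hochberg adjustment over 11724 genes, at an adjusted p under 0.05 and an absolute log2 fold change above 1, 5 of the 110 members were higher on Avicel, beside 3.66% of all genes tested, and 2 were lower, beside 4.44%. With so few calls, no difference between members and all genes is read from them. The counts moved with the fit, to 13 higher and 7 lower without the 3 libraries apart (beside 6.34% and 6.60% of all genes) and to 10 higher and 5 lower by DESeq2 (beside 4.49% and 5.27%). The median log2 fold change was 0.00 both in members and in all genes, with members running from -2.21 to 1.91. The Avicel and maltose means lay within 1.5 times of each other in 74 members. A share of all genes was not computed for that count, so nothing is read from it.

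Higher on Avicel than on maltose were 1593293 and 1590027 without annotation, the aquaporin-type gene 1618911, the most abundant member 1596703 and the reductase type 1611298. For 1593293, normalised counts were 383, 202 and 229 on Avicel against 36.5, 74.4 and 106 on maltose (log2 fold change 1.91 ± 0.39 SE, edgeR adjusted p = 0.0063). This call stood without any 1 library of either group, and was lost when only the 6 libraries compared were fitted (edgeR adjusted p = 0.065). For 1590027 the log2 fold change was 1.86 ± 0.54 (edgeR adjusted p = 0.041), for 1618911 1.76 ± 0.48 (edgeR adjusted p = 0.032), for 1596703 1.68 ± 0.46 (edgeR adjusted p = 0.032) and for 1611298 1.53 ± 0.39 (edgeR adjusted p = 0.022). The study selected 1618911 and 1611298 on these libraries among genes not raised on Avicel, so they are not independent of that choice.

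The other 4 calls depended on single libraries, and of the 5 genes called higher only 1596703 was still called with only the 6 libraries compared. That of 1618911 was lost without Avicel 1 (log2 fold change 0.82, edgeR adjusted p = 0.12), the library with 3894 normalised counts beside 989 and 1125, and without maltose 1 or 2 (adjusted p = 0.11 each). That of 1590027 stood without Avicel 1 and was lost without any other single library (edgeR adjusted p = 0.063 to 0.15), as was that of 1596703 (edgeR adjusted p = 0.052 to 0.12). That of 1611298 was lost without Avicel 2, Avicel 3, maltose 1 or maltose 2 (edgeR adjusted p = 0.057 to 0.087).

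Lower on Avicel were 1599884 and 1611669, neither annotated. The gene 1599884 had 200.0, 287 and 263 normalised counts on Avicel against 1705, 825 and 887 on maltose. It fell by 2.21 ± 0.38 (log2 scale, edgeR adjusted p = 0.0022). The gene 1611669 had 46.5, 41.5 and 46.9 on Avicel against 85.6, 97.6 and 100.4 on maltose. It fell by 1.08 ± 0.23 (log2 scale, edgeR adjusted p = 0.0067). In both the groups did not overlap, and both calls stood in every alternative fit that was run.

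The GH28 gene 1577230 and the esterase type 1586203 had log2 fold changes of 1.11 ± 0.38 and 1.22 ± 0.46 on Avicel against maltose that did not pass the test (edgeR adjusted p = 0.081 and 0.11). Both passed by DESeq2 (adjusted p = 0.033 and 0.049) and by edgeR on only the 6 libraries compared (adjusted p = 0.029 and 0.037). Of the other annotated members, none was called, with log2 fold changes of 0.68 ± 0.43 for 1672037, 0.63 ± 0.39 for the GH76 gene 1575750, -0.14 ± 0.29 for the GH125 gene 1588377 and -0.14 ± 0.53 for 1755315. Without the 3 libraries apart, 1575750 was called higher (log2 fold change 1.46, edgeR adjusted p = 0.0018), and leaving out 1 library moved its log2 fold change between 0.36 and 1.06. Those 3 libraries were picked for their low correlation with their own groups, which can narrow the spread, so no weight is put on this call.

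**Figure D5:**
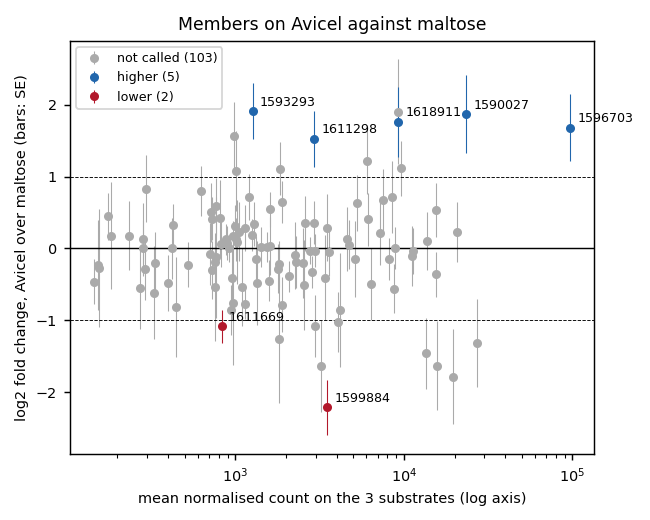
Points give the log2 fold change of each member on Avicel over maltose (bars are standard errors) against its mean normalised count on aspen, wheat straw and xylan-galactomannan on a log axis; dashed lines mark a log2 fold change of 1 and -1. The 5 blue genes passed the test as higher and the 2 red genes as lower, and the other 103 scatter around 0.

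Other genes of the same pathways were set beside the module from lists grouped by annotation, 28 genes in all, of which 2 were members and 7 were set aside by the rule. The remaining 19 did not meet the thresholds, for differing limits. The 6 cellulose-active genes all had their highest mean on Avicel, for example 1151640 normalised counts for GH7 (1675671), a family of cellobiohydrolases, on Avicel against 1318 on maltose. All 6 were called higher on Avicel than on maltose by edgeR, beside 3.66% of all genes, with a median log2 fold change of 8.69. The study had already reported these genes as high on Avicel in these same libraries, so this is no independent check of the labels.

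Among the hemicellulose-active genes, the limit that failed varied. The mannanase type CBM1-GH5_7 (1672345) averaged 11352 on aspen, 16819 on wheat straw and 6210 on xylan-galactomannan, but 61105 on Avicel, against 396 on maltose. CE15 (1679979), a glucuronoyl esterase family, averaged 924, 2770 and 7476 on these substrates in the same order, beside 2540 on Avicel and 46.0 on maltose. The gene 1695354 of GH43, which includes arabinofuranosidases that trim xylan, had a fold of 4.89 over the higher control but fell outside the evenness limit, with 12734 on aspen, 7521 on wheat straw and 2015 on xylan-galactomannan.

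The other GH28 gene, 1738933, differed from the member 1577230 in its level on Avicel. It averaged 5982 normalised counts on aspen, 14266 on wheat straw and 5619 on xylan-galactomannan, with 104545 on Avicel, against 798 on maltose. Its log2 fold change on Avicel against maltose was 7.02 ± 0.55 (edgeR adjusted p = 2.4e-06), beside 1.11 ± 0.38 for the member, and the difference between these genes was not tested.

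Xylan-galactomannan against maltose was used by the rule for members, and it was tested for the 19 other list genes. The study had chosen these on libraries that include those on maltose. Some were selected as higher on aspen or wheat straw than on these same maltose libraries, and others came from map nodes rich in secreted proteins. Selection against the maltose libraries favours low maltose levels, and so calls of higher. No difference from all genes is therefore read from the counts and medians below. By edgeR 13 of the 19 were called higher, beside 5.87% of all genes, and 0 lower, beside 2.79%. At an unadjusted p under 0.05, 1 was lower, and DESeq2 also called 13 higher and 0 lower. The 13 comprised 5 of 6 hemicellulose-active, 3 of 3 pectin-active, 4 of 4 sugar reductase or polyol dehydrogenase types and 1 of 6 cellulose-active genes. Calls were also frequent on Avicel against maltose, counted over the whole lists with members and set-aside genes. Higher on Avicel were 4 of 7 hemicellulose-active, 3 of 5 pectin-active and 4 of 5 reductase or dehydrogenase genes. So were 6 of 6 cellulose-active and 1 of 5 KOG0254 genes, beside 3.66% of all genes. Over these 19 genes, without members and set-aside genes, the median log2 fold change was 3.84 for hemicellulose-active, 2.82 for pectin-active, 2.99 for reductase or dehydrogenase and 0.01 for cellulose-active genes, beside 0.04 over all genes. Among the reductase types, KOG1577 (1578979, aldo/keto reductases) had a fold of 2.37 over the higher control but passed the evenness limit, at 36590 on xylan-galactomannan against 9103 on wheat straw and 5341 on aspen.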

How the data were processed

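The deposited count table holds counts per gene model (14165 models), made by the authors from quality-filtered reads aligned to the genome of the strain by TopHat2 and tallied per gene by HTSeq. Tool versions and the strand setting were not given in the sources used here, so overlapping or antisense genes may share reads. The deposited normalised table holds a signal, each count over the size factor of its library (largest relative deviation 5.1e-15), which the labels ascribe to DESeq 1.5. Its 11782 genes are those with at least 75 counts over the 15 libraries. The deposited length column holds another kind of value, bases per gene model. Columns of no sample numbered 0.

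Means, SDs and ratios were computed from the normalised table. Counts were tested with edgeR 4.0.16 in R 4.3.3 (filterByExpr, 11724 genes; TMM; robust quasi-likelihood, 1 mean per group over all 15 libraries; common biological coefficient of variation 0.281). Calls needed an adjusted p under 0.05 and a log2 fold change past 1 either way. On simulated counts for Avicel against maltose with 200 changed of 11672 genes, 180 calls held 5 false ones, and 83.3% of 3-fold and 91.3% of 8-fold changes were recovered. With no change there were 0 calls. Contrasts in which far more genes change were not simulated.

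The members, gene lists, tests and alternatives were chosen with earlier results of these data known. Genes named singly were every annotated member, the 10 most abundant, the 5 with the largest fold over the higher control, those nearest each threshold, up to 5 called each way on Avicel against maltose, the 2 most uneven towards each substrate, the 3 most and 3 least variable, and list genes. Lists and annotation came from the study's tables of its selected genes. No genome of this strain was used here, so no sequence or position is given.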

Additional observations from a re-analysis of the deposited data

How the results depend on the processing

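The number of members was 110, and it was 235 with a fold of 1.5 over the controls and 45 with a fold of 3. Leaving out 1 library gave 70 to 124. Group medians in place of means gave 89 genes, of which 61 were among the 110, and CPM from library totals gave 145, of which 101 were. The other settings of the rule gave 86 to 116.

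For Avicel against maltose, 5 members were called higher and 2 lower, beside 3.66% and 4.44% of all genes. Scaling by library size alone gave 3 higher and 4 lower (beside 3.19% and 4.90% of all genes). Only the 6 libraries compared gave 4 higher, of which 1 was among the 5, and 4 lower (beside 2.39% and 2.36%). DESeq2 1.42.0 gave 10 higher and 5 lower (beside 4.49% and 5.27%). Leaving out the 3 libraries apart gave 13 higher and 7 lower (beside 6.34% and 6.60%). With a replicate block 3 were higher and 2 lower, as were 410 and 478 of all genes. The replicate numbers share no source in the labels, and same-numbered libraries deviated together with correlations of -0.306, 0.097 and -0.272, so the numbers were not read as pairs. Leaving out 1 library gave 1 to 6 higher and 2 to 5 lower. Members called higher were most numerous without Avicel 1 or maltose 3, where the share of all genes called higher was also largest. Those called lower were most numerous without Avicel 1, again with the largest share of all genes. No difference between members and all genes is read from these counts. The cause of these shifts was not tested.

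Without 1 library, members free of overlap numbered 24 to 70 for aspen above xylan-galactomannan, 18 to 56 for wheat straw above xylan-galactomannan, 9 to 16 for xylan-galactomannan above aspen, 7 to 19 for xylan-galactomannan above wheat straw, 39 to 48 for aspen above wheat straw and 17 to 20 for wheat straw above aspen. Of the list genes that were neither members nor set aside, 11 to 13 were called higher on xylan-galactomannan than on maltose and 0 lower in all fits. The share of all genes called moved between these fits as well, so no difference from all genes is read from these counts.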

Other observations

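Below the members described above, the next largest folds over the higher control belonged to 1465855 and 1591361, which were singled out after their values were seen and carry no annotation in the tables used here. The gene 1465855 had 1216, 690 and 756 normalised counts on aspen, 1179, 1353 and 1247 on wheat straw, and 771, 2208 and 1424 on xylan-galactomannan, against 94.0, 126 and 110 on Avicel and 62.8, 73.2 and 62.0 on maltose. Its fold was 8.08 with or without xylan-galactomannan 2. The gene 1591361 averaged 2325 ± 451 on aspen, 2028 ± 242 on wheat straw and 2569 ± 1661 on xylan-galactomannan, against 234 ± 80.9 on Avicel and 264 ± 24.8 on maltose (SD, n = 3 each), with a fold of 7.68, and 6.16 without xylan-galactomannan 2.

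The least separated member by single libraries was 1591388, also named after its values were seen. It had 1939, 1804 and 1680 normalised counts on aspen, 1559, 1156 and 1385 on wheat straw, and 261, 1903 and 359 on xylan-galactomannan, against 313, 289 and 285 on Avicel and 299, 233 and 695 on maltose. On xylan-galactomannan only library 2 stood above the controls.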
